A study of Bos taurus with 53 samples.

Results

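CAMKV, MTMR11, GXYLT2, ACTG2, MTURN, MUC1, ST3GAL1 and RUSC2 are 8 of the 18541 named genes (24596 features in all) counted in bovine embryos on day 14. They were selected on measured values, as named genes of low p for the difference between HIGH PA and BASAL in extraembryonic tissue (EX), the part of the embryo outside the embryonic disc (ED). Of the 8 genes, 6 were higher and 2, ST3GAL1 and RUSC2, were lower in HIGH PA. That difference is therefore given as a description, and tests are given only for comparisons that did not choose the genes. The shape and sex comparisons in EX, and the EX side of the tissue comparison, still share libraries with the choice. Their p-values for the 8 genes are thus not independent of it.

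Oocytes were matured in vitro in 1 of 3 media, fertilised in vitro and grown to blastocysts, which were placed in recipient cows. CONTROL medium had no added fatty acid and no solvent. BASAL medium had 23 µM palmitic, 28 µM stearic and 21 µM oleic acid in 0.45% ethanol, and HIGH PA medium had 150 µM palmitic acid with the same stearic acid, oleic acid and ethanol. The treatment thus acted on the oocyte, and the tissues were collected on day 14 without further exposure named in the labels. All CONTROL embryos came from cow 813, so CONTROL and that cow cannot be told apart, whereas 6 cows gave EX samples of both BASAL and HIGH PA. The EX libraries were 14 BASAL, 10 HIGH PA and 4 CONTROL, the ED libraries 12, 8 and 3, and 2 HIGH PA embryos were sequenced undissected (EX+ED). Each embryo had been scored as tubular, ovoid or spherical. The embryo is the replicate, but embryos that shared a cow and a medium did not come from separate recipients.

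Depth ran from 6814 to 19533821 exon reads per library. EX BASAL replicate 7 (9810 reads) and ED BASAL replicate 7 (6814 reads) had 0 reads of all 8 genes and are left out of the levels below. EX HIGH PA replicates 9 and 10, from the 2 spherical embryos with EX libraries, stood apart: they held 340016 and 1068407 reads, against 3101968 or more in the other EX libraries over 10000, and were the only EX libraries on lane 1. Reads in introns were 10.5% and 11.2% of their reads, against 6.39% to 10.1% in the other EX libraries. Replicate 9, whose sex was not determined, could not enter fits with a sex term. ED BASAL replicate 12 held 0 CPM of the epiblast markers against a median of 626 over BASAL discs. Trophectoderm markers (11 of 12 in the table, all with reads) summed to 18820 to 32890 CPM in EX HIGH PA and 19370 to 25710 in EX BASAL. CPM is the count of a gene per 1000000 exon reads of the library.

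Palmitic acid is a main saturated fatty acid of follicular fluid, and its level rises when a cow mobilises body fat. Trophectoderm and hypoblast make up the extraembryonic part, which changes from a sphere to an ovoid, then a tube and a filament before it attaches to the uterus. Several of the 8 genes act at the cell surface or on glycans: MUC1 is a transmembrane mucin of apical epithelial surfaces, ST3GAL1 caps mucin-type O-glycans with sialic acid, and GXYLT2 adds xylose to the O-glucose of epidermal growth factor repeats, as in Notch receptors. ACTG2 is the gamma actin of smooth muscle, MTMR11 a catalytically inactive member of the myotubularin phosphoinositide phosphatases, and RUSC2 a RUN and SH3 domain protein that binds RAB GTPases of membrane traffic. CAMKV is a vesicle-associated pseudokinase known from neurons, and MTURN (maturin) is known from neural differentiation.

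In the files' coordinates (UMD3.1), MTMR11 (ENSBTAG00000012496; 20718767 to 20726741) and MUC1 (ENSBTAG00000017104; 15482855 to 15486936) lie on chromosome 3. CAMKV (ENSBTAG00000004878; 50957514 to 50969031) and GXYLT2 (ENSBTAG00000020481; 28846977 to 28904207) lie on chromosome 22. MTURN (ENSBTAG00000039231) spans 66610954 to 66643765 on chromosome 4, and RUSC2 (ENSBTAG00000011403) spans 60134671 to 60196453 on chromosome 8. ACTG2 (ENSBTAG00000015441) spans 10717553 to 10732398 on chromosome 11, and ST3GAL1 (ENSBTAG00000001156) spans 8970644 to 8985785 on chromosome 14. All exon reads of the 8 genes were listed as uniquely placed (100% each). This includes ACTG2, whose coding sequence is close to those of the other actins, so its counts are still uncertain. Only RUSC2 overlaps another feature, FAM166B, at its upper coordinate.

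These were transcripts of low abundance. Per kilobase of exon, MUC1 was the highest in EX BASAL, at 3.69 ± 1.03 CPM per kb (SD, n = 13). ST3GAL1 (1.3 ± 1.12) and MTURN (1.13 ± 0.259) came next and differed from each other by less than their spread, while MUC1 lay above both by more. RUSC2 (0.427 ± 0.172), MTMR11 (0.325 ± 0.158), CAMKV (0.280 ± 0.136), GXYLT2 (0.229 ± 0.228) and ACTG2 (0.126 ± 0.222) followed, and each neighbour in that order lay within the spread of the next. A level of 1 CPM at the median EX BASAL depth of 8080950 reads is only a handful of reads, so counting error is large for all but MUC1 and MTURN.

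**Figure D1:**
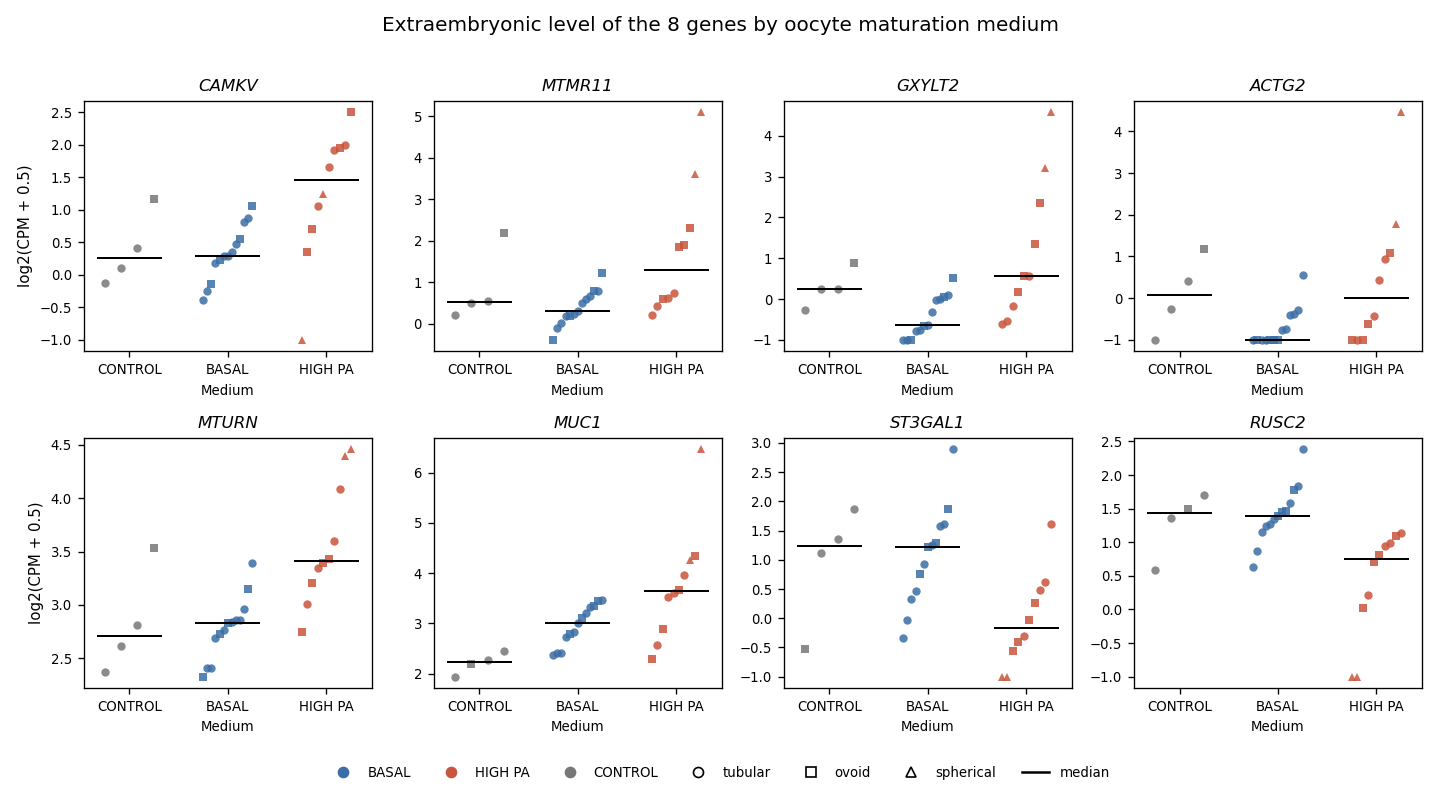
Level of each gene in the 27 extraembryonic libraries over 10000 reads, as log2(CPM + 0.5), by oocyte maturation medium; each point is a library, its symbol the embryo's shape, points are spread sideways in order of value, and the bar is the median. The 2 spherical HIGH PA embryos are the highest of all libraries for MTMR11, GXYLT2, ACTG2 and MTURN. CAMKV is at 0.774 to 5.16 CPM in tubular and ovoid HIGH PA embryos, 5 of 8 above the highest BASAL library (1.59). In the spherical ones CAMKV is at 1.87 CPM and at 0 reads, which allows up to 8.82.

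In the contrast that chose the genes, 0 of 10969 tested genes were called (0% background) at an adjusted p under 0.05 by edgeR, and 0 by DESeq2. An unadjusted p under 0.05 was reached by 531 genes, 4.84%. By edgeR's order of p the genes ranked 1 (CAMKV), 2 (MTMR11), 4 (GXYLT2), 5 (ACTG2), 7 (MTURN), 12 (ST3GAL1), 39 (RUSC2) and 112 (MUC1) among all features. The choice was thus not strictly that of lowest p. Just outside it, chosen here after their values were seen, stood PLA2G4A (log2 fold change 2.65, rank 8) after MTURN and SLC22A5 (-0.43, rank 21) after ST3GAL1. The named genes next after the last members were OBSL1 (0.71, rank 113) among those higher and MRPL3 (-0.34, rank 70) among those lower, beside MUC1 (0.62) and RUSC2 (-0.95). The samples are bulk tissue, in which more cells of a type and more RNA per cell cannot be told apart.

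CAMKV, the pseudokinase, had the lowest p. Its EX level was 0.264, 0.725 and 1.59 CPM (lowest, median and highest) in BASAL and 0, 2.27 and 5.16 in HIGH PA. CONTROL libraries had 0.412, 0.835, 0.574 and 1.75 CPM. In HIGH PA 6 of 10 libraries exceeded the highest BASAL library, and the exceptions included EX HIGH PA replicate 9, with 0 reads, which at its depth allows up to 8.82 CPM. The mean was 0.812 ± 0.393 in BASAL (n = 13) and 2.33 ± 1.54 in HIGH PA (n = 10), giving a fitted log2 fold change of 1.79 (SE 0.323). Without the spherical embryos the HIGH PA mean was 2.68 ± 1.46 (n = 8), and in tubular embryos alone the log2 fold change was 2.25 (SE 0.409).

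CAMKV is also a disc transcript, so disc markers are given beside it. The 5 epiblast markers in the table (of 8) summed to 0.133 to 1.85 CPM in EX BASAL and 0.483 to 11.8 in EX HIGH PA, against medians of 626 and 696 in BASAL and HIGH PA discs. SOX2 was at 0 reads in EX BASAL and in EX CONTROL. The median of this sum was 0.761 in EX BASAL and 1.39 in EX HIGH PA. NNAT, the most abundant of these markers in the disc, was 0.228 ± 0.229 CPM in EX BASAL and 2.12 ± 3.78 in EX HIGH PA. Its medians were 0.192 and 0.429 CPM. The highest NNAT values were in spherical replicates 9 (11.8 CPM, 4 reads) and 10 (5.62 CPM, 6 reads). Of the HIGH PA libraries highest for CAMKV, replicate 1 had 0.533 CPM of these markers, replicate 2 had 1.55 and replicate 5 had 2.06. The top marker value, in replicate 9, is 4 reads, and the 0 reads of CAMKV in that library allow up to 8.82 CPM. The part of disc RNA in the CAMKV level was not tested.

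MTMR11, the inactive myotubularin, was high in few libraries. EX BASAL ran from 0.266 over a median of 0.739 to 1.85 CPM, and EX HIGH PA from 0.666 over 2.13 to 33.7. CONTROL had 0.960, 0.668, 0.918 and 4.08 CPM. The top of the range was EX HIGH PA replicate 10 (33.7 CPM, 36 reads, exact 95% interval 23.6 to 46.7) and replicate 9 (11.8 CPM, 4 reads, 3.21 to 30.1), both spherical. The HIGH PA mean of 6.09 ± 10.3 (n = 10) was 1.93 ± 1.43 without them (n = 8), against 0.865 ± 0.422 in BASAL. The fitted log2 fold change of 2.11 (SE 0.423) was 1.37 (SE 0.336) without replicate 10 and 1.00 (SE 0.300) with shape as a term.

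GXYLT2, the Notch-repeat xylosyltransferase, shared this pattern. It ran from 0 over 0.148 to 0.918 CPM in EX BASAL and from 0.154 over 0.969 to 23.4 in EX HIGH PA, with 0.686, 0.334, 0.689 and 1.36 in CONTROL. All 10 HIGH PA libraries lay above the BASAL median and 6 above the highest BASAL library. EX HIGH PA replicates 10 and 9 had 25 and 3 reads (23.4 and 8.82 CPM), followed by ovoid replicates 1 (4.62) and 5 (2.06). On the log2 scale the fitted difference was 2.89 (SE 0.585), and 1.62 (SE 0.504) with shape as a term.

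ACTG2, the smooth muscle actin, was nearly unread in BASAL. There 7 of 13 EX libraries had 0 reads and the highest had 0.966 CPM, while EX HIGH PA ran from 0 (3 of 10 libraries) over 0.543 to 21.5. CONTROL had 0.823, 0.334, 0 and 1.75 CPM. The highest value was 23 reads in EX HIGH PA replicate 10, and the next was a single read in replicate 9 (2.94 CPM), so the groups overlapped widely. Its log2 fold change was fitted at 4.05 (SE 0.835), and without replicate 10 and without the filter it was 2.64 (SE 0.873). The 6 smooth muscle markers, a list without ACTG2, summed to 8.46 to 259 CPM in EX BASAL and 7.21 to 169 in EX HIGH PA, with 43.1 in replicate 10, and none was at 0 in either group. TAGLN made up most of this sum (47.1 ± 61.5 CPM in EX BASAL and 45.7 ± 57.2 in EX HIGH PA). ACTA2, the alpha actin of smooth muscle, was 3.54 ± 2.28 CPM in EX BASAL, with 8.52 at the highest. In EX HIGH PA it was 9.004 ± 8.80 CPM, and its highest values of 28.1 and 17.7 were those of replicates 10 and 9. ACTG2 was also highest in these, but in replicate 9 from 1 read, beside 6 of ACTA2. Replicate 1 had 90 reads of ACTA2 and 0 of ACTG2. TAGLN in replicate 10 was 12.2 CPM, below its EX HIGH PA median of 15.7. BASAL and HIGH PA means were 0.638 and 0.603 CPM for MYH11, 0.862 and 1.155 for CNN1, and 0.817 and 1.121 for LMOD1. These 3 markers differed by less than their spread. DES, desmin, had 0.443 ± 0.530 CPM in BASAL and 1.06 ± 1.74 in HIGH PA, also within its spread. Its highest HIGH PA value was 5.88 CPM in replicate 9, from 2 reads. The part of such cells in the ACTG2 level was not tested.

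MTMR11, GXYLT2 and ACTG2 passed the filter on low counts with the 4 CONTROL libraries in the fit, since the filter asks for enough reads in as many libraries as the smallest group. They did not pass it with BASAL and HIGH PA alone or with tubular embryos alone. GXYLT2 and ACTG2 did not pass without EX HIGH PA replicate 10 either. Their fold changes therefore rest on counts near the limit of what was tested.

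MTURN, known from neural differentiation, was moderately higher in HIGH PA. EX BASAL ran from 4.52 over 6.61 to 10.02 CPM and EX HIGH PA from 6.19 over 10.1 to 21.5, with 4.66, 6.51, 5.62 and 11.1 in CONTROL. In HIGH PA 9 of 10 libraries lay above the BASAL median and 5 above its highest library. Without the spherical embryos, 3 of 8 exceeded that library. The mean was 6.54 ± 1.49 in BASAL and 12.3 ± 5.39 in HIGH PA, or 10.1 ± 3.10 without the spherical embryos. A log2 fold change of 0.80 (SE 0.187) for all EX libraries was 0.73 (SE 0.198) with shape as a term and 0.95 (SE 0.260) in tubular embryos alone.

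MUC1, the apical mucin, was the most abundant of the 8. EX BASAL ran from 4.66 over 7.54 to 10.5 CPM and EX HIGH PA from 4.38 over 12.0 to 88.2, while CONTROL had 4.94, 4.34, 3.33 and 4.08. In HIGH PA 7 of 10 libraries exceeded the highest BASAL library and 3 lay below the BASAL median. The top value came from the shallow replicate 9 (30 reads, exact 95% interval 59.5 to 126 CPM), which was not in the fit. Without the spherical embryos the HIGH PA mean was 10.8 ± 5.16 (n = 8), against 7.51 ± 2.10 in BASAL, and the log2 fold change of the fit was 0.62 (SE 0.220). MUC1 is also a transcript of the uterine lining. Of 7 markers of maternal uterine epithelium 3 were in the table (PAEP, ESR1 and FOXA2, also a hypoblast gene) and summed to 0.716 to 2.39 CPM in EX BASAL and 0 to 1.87 in EX HIGH PA, with PAEP at 0 in both.

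ST3GAL1, the O-glycan sialyltransferase, was lower in HIGH PA. EX BASAL ran from 0.296 over 1.84 to 6.94 CPM and EX HIGH PA from 0 over 0.395 to 2.55, with 3.15, 1.67, 2.07 and 0.194 in CONTROL. Of 8 HIGH PA libraries with reads, all but replicate 4 (2.55 CPM) lay below the BASAL median. The log2 fold change was -1.61 (SE 0.404), and -1.57 (SE 0.408) without EX HIGH PA replicate 10. Replicates 10 and 9 had 0 reads, which allows up to 2.81 and 8.82 CPM, so their levels could not be told from those in BASAL at this depth.

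RUSC2, the RAB-binding adaptor, was below the BASAL median of 2.12 CPM in the 8 HIGH PA libraries with reads. In spherical replicates 10 and 9 its 0 reads allow up to 2.81 and 8.82 CPM, which is above that median. EX BASAL ran from 1.06 to 4.74 and EX HIGH PA from 0 over 1.19 to 1.70, with 2.74, 1.00, 2.07 and 2.33 in CONTROL. The groups overlapped. Its log2 fold change was -0.95 (SE 0.280), and -0.87 (SE 0.265) without replicate 10.

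Recipient cow was crossed with medium, so the medians can be set side by side within a cow. In all 6 cows with both media the HIGH PA median was above the BASAL median for GXYLT2, MTURN and MUC1. It was higher in 5 of 6 cows for CAMKV and ACTG2 and in 4 of 6 for MTMR11. The MTMR11 exceptions were cow 07 (1.16 against 1.18 CPM in BASAL) and cow 813 (1.03 against 1.09). These tallies use the values that chose the genes, and some rest on few reads. For GXYLT2 the medians of cow 813 were 2 reads in HIGH PA and 1 in BASAL, and the BASAL library of cow 13 had 1 read. For ACTG2 the HIGH PA library of cow 12 had 1 read, and the HIGH PA median of cow 07 was 2 reads. For 6 genes the largest gap was in cow 25, with 1 library of each medium: MTMR11 had 0.631 and 33.7 CPM, GXYLT2 0 and 23.4, ACTG2 0.316 and 21.5, MTURN 6.31 and 21.5, ST3GAL1 6.94 and 0, and RUSC2 4.74 and 0 in BASAL and HIGH PA. This HIGH PA library is the spherical replicate 10. The largest gap of MUC1 was in cow 12, that of the spherical replicate 9 (6.598 and 88.2 CPM), and that of CAMKV in cow 72 (0.716 and 4.25). RUSC2 was lower in 5 of 6 cows and ST3GAL1 in 4 of 6, cows 12 and 25 included, where the HIGH PA library had 0 reads of both. Cow 13 went the other way for both, with medians of 0.296 and 1.43 CPM for ST3GAL1 and 1.33 and 1.59 for RUSC2. With cow as a replicate block the log2 fold change of MTMR11 was 1.43 (SE 0.388) and that of ACTG2 3.12 (SE 0.931). The other 6 lay between -1.55 (ST3GAL1) and 2.44 (GXYLT2), and all 8 kept their sign. Nothing is read from the signs, since this contrast chose the genes.

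**Figure D2:**
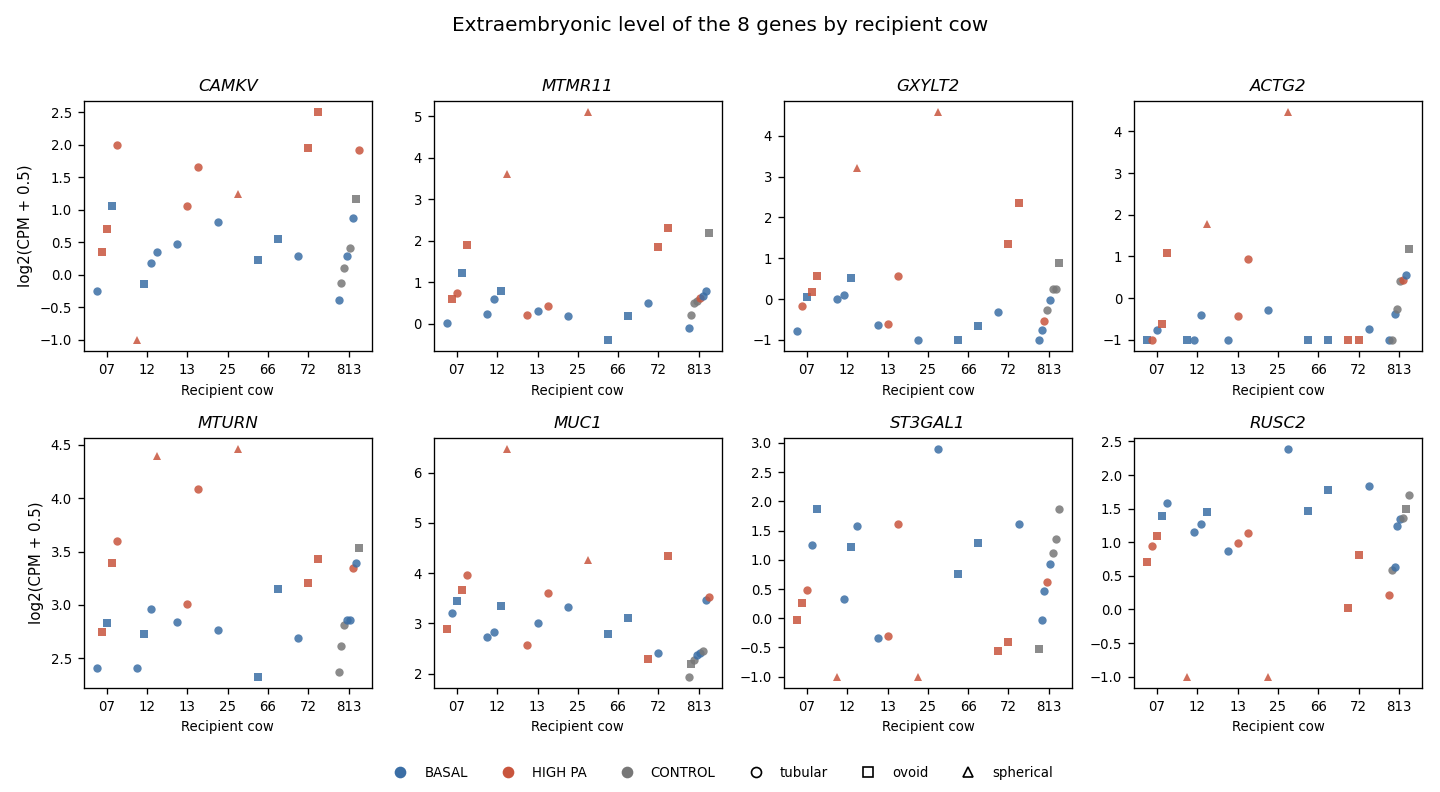
Extraembryonic level of each gene, as log2(CPM + 0.5), by recipient cow, with colour for medium and symbol for shape; each point is a library over 10000 reads. MTURN and MUC1 have higher HIGH PA than BASAL medians in all 6 cows with both media, and the 2 spherical embryos belong to cows 12 and 25.

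Shape sorted MTMR11 and GXYLT2 more than the other genes. In tubular EX libraries of all media MTMR11 stayed between 0.440 and 1.24 CPM (mean 0.845 ± 0.235, n = 16), in ovoid ones between 0.266 and 4.45 (2.20 ± 1.54, n = 9), and in the 2 spherical ones it was 11.8 and 33.7. In BASAL alone the ovoid mean of 0.997 ± 0.693 (n = 4) and the tubular mean of 0.807 ± 0.273 (n = 9) differed by less than their spread. In HIGH PA they were 2.94 ± 1.43 (n = 4) and 0.928 ± 0.217 (n = 4). The ovoid CONTROL embryo had 4.08, and the tubular ones 0.849 ± 0.158 (n = 3). With medium and sex in the fit and spherical embryos held apart, MTMR11 rose in ovoid against tubular tissue by 0.93 on the log2 scale (SE 0.273, adjusted p = 0.0317, edgeR quasi-likelihood test with Benjamini-Hochberg adjustment). It was the only gene called among the 8, in a comparison that called 1390 of 10969 genes (12.7%), 761 higher and 629 lower in ovoid tissue (383 and 597 by DESeq2). With cow as a replicate block 0 genes were called, and the MTMR11 value was 1.02 (adjusted p = 0.236). It also missed the threshold without cow 07 (0.62, adjusted p = 0.305), without cow 13 (0.77, adjusted p = 0.0557), without the filter (0.90, adjusted p = 0.0523), with lane as a term and EX HIGH PA replicate 10 left out (0.74, adjusted p = 0.205) and without the 7 libraries that carry a mark 2 in the authors' column names (0.87, adjusted p = 0.118). DESeq2 gave 0.90 and no adjusted p. Over 14 alternatives that gave a value it ranged from 0.62 to 1.25, always higher in ovoid embryos.

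GXYLT2 was 0.350 ± 0.283 CPM in tubular (n = 16) and 1.25 ± 1.41 in ovoid EX libraries (n = 9), with 8.82 and 23.4 in the spherical ones. In BASAL alone the ovoid and tubular means were 0.395 ± 0.415 and 0.244 ± 0.229, within their spread. In HIGH PA they were 2.07 ± 1.81 and 0.425 ± 0.379. The ovoid to tubular log2 difference was 1.12 (SE 0.486, adjusted p = 0.107) and did not pass. The remaining 6 genes had log2 differences between -0.80 (ACTG2, SE 0.778) and 0.10 (RUSC2, SE 0.242), with adjusted p of 0.476 or more. For MTURN the 95% interval ran from -0.47 to 0.27 and for CAMKV from -0.68 to 0.71.

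The undissected embryos add a spherical sample that no fit used. In EX+ED HIGH PA replicate 1, a spherical male from cow 66, MTMR11 was 22.0 CPM (31 reads, exact 95% interval 14.97 to 31.3), GXYLT2 6.39 (9 reads, 2.92 to 12.1) and ACTG2 7.11 (10 reads, 3.41 to 13.1). Its MTMR11 and GXYLT2 lay above all tubular and ovoid EX libraries. ST3GAL1 was at 0 reads there (up to 2.13 CPM), but RUSC2 was at 2.84 CPM and MTURN at 7.82, inside their EX BASAL ranges. The ovoid EX+ED replicate 2, from the same cow, had 5.74 CPM of MTMR11, 4.46 of GXYLT2, 0.956 of ACTG2 and 0 of ST3GAL1. Both hold disc tissue too, with epiblast markers at 27 and 22.6 CPM. All 3 spherical embryos were HIGH PA, so for the highest levels shape and medium cannot be told apart, and intron reads were 12.9% in this spherical library.

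**Figure D3:**
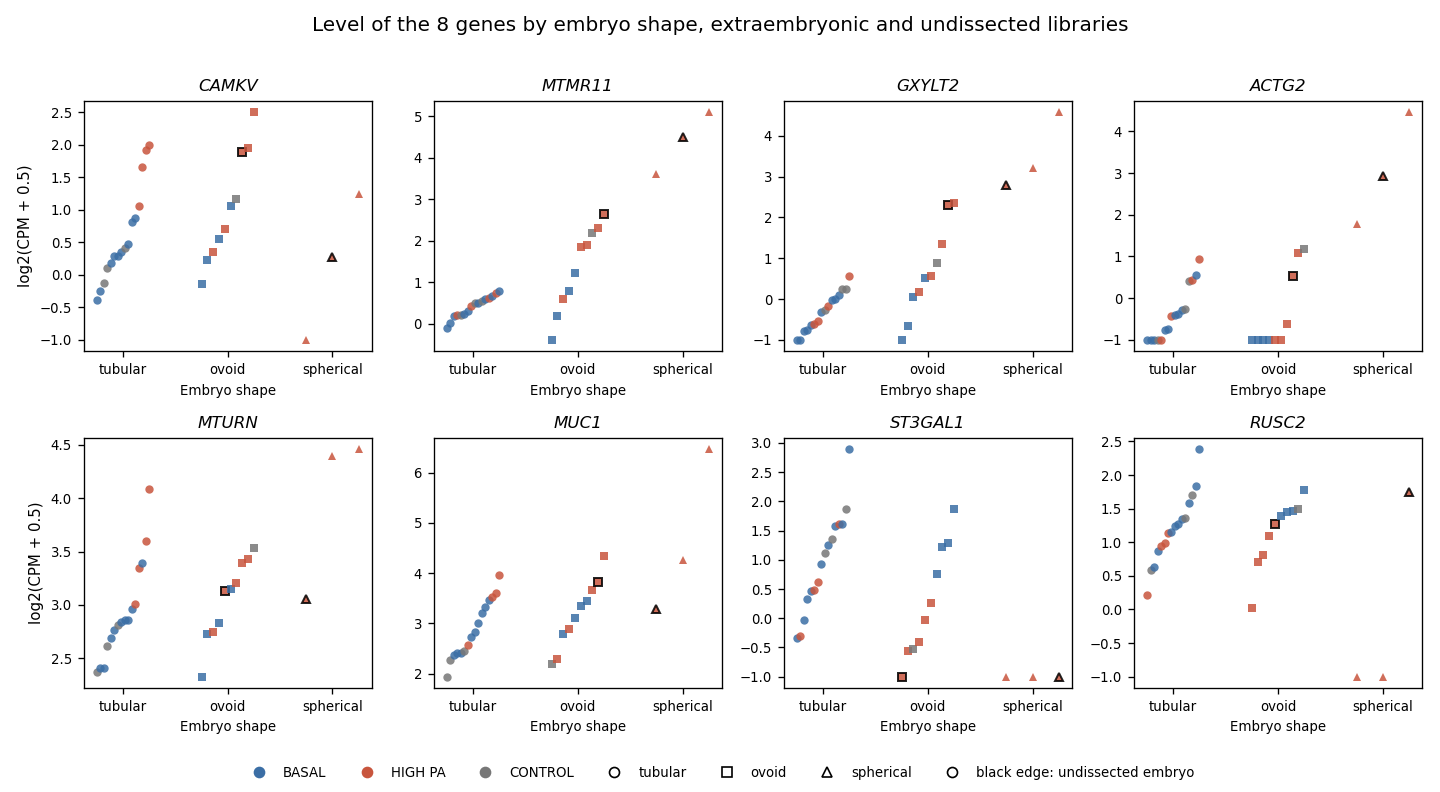
Level of each gene, as log2(CPM + 0.5), in extraembryonic libraries and in the 2 undissected embryos (black edge), by embryo shape, with colour for medium; points are spread sideways in order of value. MTMR11 and GXYLT2 are higher in each of the 3 spherical embryos than in all tubular ones, and ST3GAL1 is at 0 reads in all 3.

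The disc offers values that the choice did not use, although all 8 HIGH PA discs came from embryos whose EX tissue is described above. By edgeR 0 of 11040 genes were called between HIGH PA and BASAL discs (0%), with 1004 (9.09%) at an unadjusted p under 0.05 and 2 called by DESeq2. Of the 8 genes, 5 passed the filter and 0 were called. MTURN had the lowest p: BASAL discs ran from 2.88 over 7.12 to 12.7 CPM and HIGH PA discs from 0 over 13.0 to 24.0. Its level was above the BASAL median in 7 of 8 HIGH PA discs, and the exception, ED HIGH PA replicate 5, had 0 reads in a library of 119116, which allows up to 25.2 CPM. HIGH PA discs were higher by 1.03 on the log2 scale (SE 0.328, 95% interval 0.35 to 1.70, adjusted p = 0.479), with 0.89 to 1.17 over 20 alternatives with adjusted p from 0.114 to 1. All 3 cows with discs of both media had the higher median in HIGH PA.

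CAMKV was 29.2 ± 14.6 CPM in BASAL (n = 11) and 47.6 ± 32.7 in HIGH PA discs (n = 8), a log2 difference of 0.87 (SE 0.395, adjusted p = 0.528) that was 0.34 with cow as a replicate block. ACTG2 was 7.62 ± 6.10 and 11.8 ± 13.2 CPM (0.87, SE 0.588, adjusted p = 0.670). MTMR11 (0.10, 95% interval -1.12 to 1.32) and MUC1 (-0.09, -0.77 to 0.59) differed by less than the spread between discs. GXYLT2, ST3GAL1 and RUSC2 did not pass the filter. GXYLT2 had 1.67 ± 1.27 CPM in BASAL and 0.492 ± 0.768 in HIGH PA discs, of which 4 of 8 had 0 reads. In 3 of these 4 the depth allows up to 5.55, 2.22 and 25.2 CPM, above the BASAL median of 1.44. Fitted without the filter its log2 fold change was -1.07 (SE 0.711, adjusted p = 0.630), which did not pass.

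Between ovoid and tubular discs edgeR called 0 of 11040 genes (0%; 806 at an unadjusted p under 0.05, 17 called by DESeq2). Among the 5 genes tested, MTMR11 had a log2 difference of 0.56 (SE 0.551, adjusted p = 0.868) and CAMKV one of -0.54 (SE 0.364, adjusted p = 0.779). Neither exceeded the spread between discs.

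Embryos with both parts sequenced showed CAMKV and ACTG2 to be mainly disc transcripts. CAMKV was lower in EX than in the disc of the same embryo in 22 of 22 embryos, with medians of 0.861 and 35.4 CPM. It fell by 4.51 on the log2 scale (SE 0.258, adjusted p = 5.63e-15, edgeR with embryo as a block). ACTG2 was lower in EX in 20 of 22 embryos and at 0 reads in both parts of the other 2, with medians of 0.0430 and 7.17 CPM, and fell by 4.36 (SE 0.390, adjusted p = 2.09e-10). In a comparison that called 30.8% of 11921 genes lower in EX, 3 of the 8 genes were called lower. The third was GXYLT2 (-1.003, SE 0.384, adjusted p = 0.0274; lower in 14 of 22 embryos). The order of its EX and disc medians differed between the media, but rests on few reads in HIGH PA. In BASAL the GXYLT2 medians were 0.148 CPM in EX and 1.44 in discs. In HIGH PA they were 0.793 in EX without the spherical embryos and 0.211 in discs, where 4 of 8 libraries had 0 reads. The depth of these 4 allows up to 5.55, 2.22, 25.2 and 0.846 CPM, above that EX median. The order in HIGH PA was thus not resolved, and its EX values are among those that chose the gene. The tissue difference of GXYLT2 within each medium was not tested. Without the embryo block, a fit with no replicate block, GXYLT2 missed the threshold (-0.89, adjusted p = 0.0601), as it did without cow 12 (-0.99, adjusted p = 0.0823).

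None of the 8 genes was called higher in EX by edgeR, where 24.5% of all genes were. MUC1 came nearest, at 0.33 (SE 0.169, adjusted p = 0.0941), and DESeq2 called it (0.39, adjusted p = 0.0359). MTURN differed by 0.01 (95% interval -0.28 to 0.30), RUSC2 by 0.15 (-0.28 to 0.58), ST3GAL1 by 0.10 (-0.55 to 0.74) and MTMR11 by -0.46 (-1.04 to 0.11). Disc libraries also held the trophectoderm markers, at 12040 to 21290 CPM in BASAL discs and 19370 to 25710 in EX BASAL. Of these IFNT2 was 1564 ± 749 and 3019 ± 886 CPM. The tissue differences are thus between dissected parts, not cell types, and the part of trophectoderm RNA in discs was not tested. No spherical embryo had a disc library. CAMKV was 0.8 CPM in ED BASAL replicate 12, the disc library without epiblast markers, and 7.82 to 47.3 in the other BASAL discs.

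**Figure D4:**
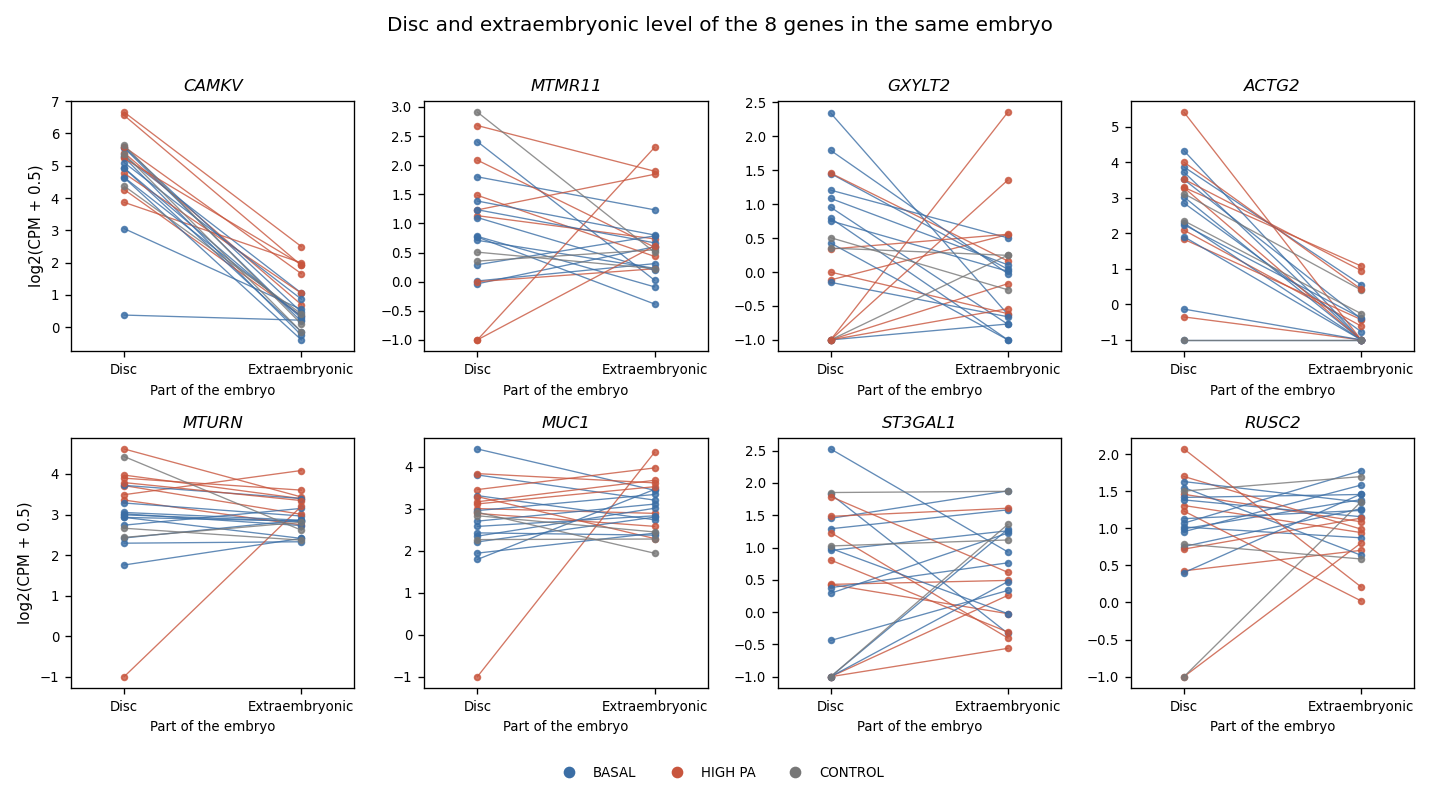
Level of each gene, as log2(CPM + 0.5), in the disc and the extraembryonic part of the same embryo; each line is 1 of 22 embryos with both libraries over 10000 reads, coloured by medium. The lines of CAMKV and ACTG2 fall from disc to extraembryonic tissue, whereas those of MTURN, MUC1, RUSC2 and ST3GAL1 cross.

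Embryo sex was a term of the fits, and 99 of 10969 genes (0.903%) were called between female and male EX tissue. This comparison used the same libraries and model as the contrast that chose the genes. The 8 female libraries included EX HIGH PA replicate 10. Of the 8 genes, MTMR11 (log2 difference, female minus male, 1.95, SE 0.393, adjusted p = 0.00874) and GXYLT2 (2.37, SE 0.541, adjusted p = 0.0257) were called higher in females and ST3GAL1 (-1.76, SE 0.418, adjusted p = 0.0323) lower, all by edgeR. Without replicate 10 none of the 3 calls held: MTMR11 was at 1.16 (adjusted p = 0.107), ST3GAL1 at -1.72 (adjusted p = 0.0528), and GXYLT2 did not pass the filter (1.48 without it, adjusted p = 0.277). DESeq2 called none of the 3, at adjusted p of 0.0686, 0.337 and 0.0661. The MTMR11 call was also lost without cow 25, to which replicate 10 belongs (adjusted p = 0.141). The GXYLT2 call was lost with cow as a replicate block (1.49, adjusted p = 0.179) and without cow 07 or 13, and the ST3GAL1 call without cow 07, 13, 25, 72 or 813 (adjusted p from 0.0505 to 0.590).

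The median of MTMR11 was 1.23 CPM in females and 0.884 in males (n = 8 and 18). ST3GAL1 ran from 0 over 0.389 to 1.84 CPM in females and from 0.258 over 1.78 to 6.94 in males. In EX CONTROL, the only female was also the only ovoid embryo: it had the highest MTMR11 (4.08), ACTG2 (1.75) and MTURN (11.1 CPM) and the lowest ST3GAL1 (0.194) of the 4. ACTG2 (2.95, SE 0.757, adjusted p = 0.0567) missed the threshold, but passed it with DESeq2's size factors (3.10, adjusted p = 0.0408) and without cow 72 (3.47, adjusted p = 0.0231). CAMKV, MTURN, MUC1 and RUSC2 had adjusted p of 0.590 or more.

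**Figure D5:**
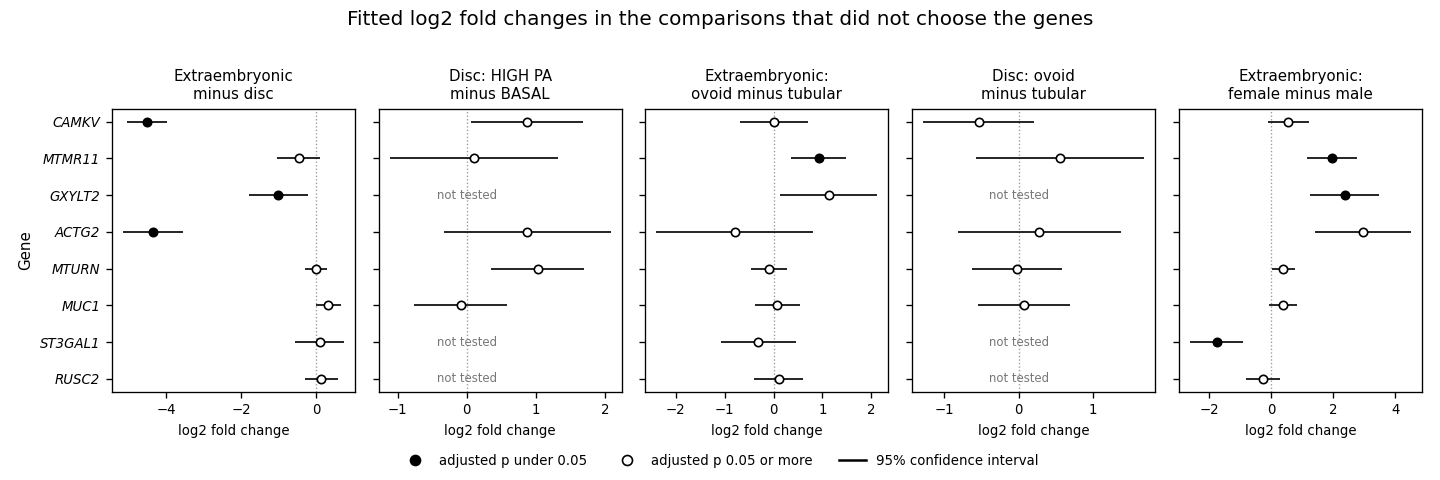
Fitted log2 fold changes with 95% confidence intervals for the 8 genes in the 5 comparisons that did not choose them; filled points have an adjusted p under 0.05, and genes under the filter on low counts are marked as not tested. CAMKV and ACTG2 lie farthest from 0 in the comparison of tissues, and the 3 filled points for sex are the calls that did not hold without EX HIGH PA replicate 10. The tissue comparison and the extraembryonic shape and sex comparisons share libraries with the choice of genes.

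Among EX libraries the level of MTMR11 was most like that of GXYLT2 of all named genes past the filter. Pearson's r of log2(CPM + 0.5) was 0.93 over 27 libraries (Spearman's rho 0.74) and 0.80 over the 25 that were not spherical. The other members' closest genes were P2RY1 for CAMKV (r = 0.70), TMEM45B for ACTG2 (0.77), PLA2G4A for MTURN (0.82), RGS16 for ST3GAL1 (0.80), PMP22 for RUSC2 (0.83) and ALKBH6 for MUC1 (0.84). Without the spherical libraries these were 0.65, 0.55, 0.64, 0.73, 0.57 and 0.63. Among the 8 genes themselves, MTMR11 and ACTG2 went from 0.76 to 0.28 without the spherical libraries, GXYLT2 and ACTG2 from 0.67 to 0.03 and MTURN and RUSC2 from -0.75 to -0.48. CAMKV and MTURN went the other way, from 0.37 to 0.74. These correlations are descriptions, since the libraries share depth, lane and the choice of genes.

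Relatives of the genes were followed in 7 lists drawn up by function. By edgeR 0 of 101 tested relatives were called between HIGH PA and BASAL in EX (8 at an unadjusted p under 0.05, 0 by DESeq2) and 0 of 105 in discs (12 at an unadjusted p under 0.05). In EX, 14 of 26 tested enzymes of mucin-type O-glycosylation and sialylation other than ST3GAL1 had a log2 fold change above 0 (median 0.07, against 0.00 over all genes). The same count was 9 of 17 for Notch glycosylation and signalling genes other than GXYLT2 (0.01), 8 of 17 for phosphoinositide enzymes other than MTMR11 (-0.02) and 13 of 20 for actins and smooth muscle genes other than ACTG2 (0.13). It was 5 of 10 for calmodulin kinases other than CAMKV (0.02), 3 of 9 for RUN domain and RAB genes other than RUSC2 (-0.02) and 3 of 3 for mucins and sialoglycoproteins other than MUC1 (0.26).

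Between tissues the relatives differed in both directions. Their counts are to be read beside the 30.8% of all genes called lower and 24.5% called higher in EX, and nothing is read from a list near these shares. Of 21 Notch genes 10 were called lower in EX and 1 higher, including NOTCH1, a Notch receptor (-3.98, SE 0.303), and MFNG, a fringe glycosyltransferase (-5.67, SE 0.423). Of 20 actin and smooth muscle genes 9 were lower and 7 higher, with ACTC1, the cardiac actin, at -6.37 (SE 0.435) and CNN1, calponin, at -4.27 (SE 0.369). Of 29 O-glycosylation and sialylation genes 10 were lower and 8 higher, with CMAS, which activates sialic acid, at -2.08 (SE 0.183) and GALNT16, which starts mucin-type O-glycans, at -4.08 (SE 0.375). The phosphoinositide list had 4 of 17 lower (MTMR14 at -0.79, SE 0.124) and 4 higher (MTMR2 at 0.57, SE 0.125). The calmodulin kinase list had 2 of 10 lower (CASK at -1.31, SE 0.127) and 4 higher, the RUN and RAB list 2 of 11 lower (SGSM2 at -2.66, SE 0.282) and 5 higher, and the mucin list 1 of 3 each way (PODXL at -1.21, SE 0.221; SDC1 at 0.39, SE 0.122). All had edgeR adjusted p under 0.05.

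Between ovoid and tubular EX tissue 17 of 101 relatives were called, beside 12.7% of all genes. Of 26 O-glycosylation and sialylation genes 6 were lower and 1 higher, among them GNE, the entry enzyme of sialic acid synthesis (-0.91, SE 0.209, adjusted p = 0.0115, edgeR), and GCNT1, which branches core 1 glycans (-0.53, SE 0.133, adjusted p = 0.0174). In the actin list 3 of 20 were lower and 1 higher (SYNPO2 at -1.35, SE 0.272; MYL9 at 0.64, SE 0.131). The Notch list had 2 of 17 lower (RBPJ and NOTCH3), the RUN and RAB list 2 of 9 (RAB1A and USO1), and the phosphoinositide and calmodulin kinase lists 1 each (MTMR4 and CAMK2D). These calls belong to the 1390 that fell to 0 with cow as a replicate block. By sex 2 of 101 relatives were called, beside 0.903% of all genes: ACTA2, another smooth muscle actin (1.53, SE 0.305, adjusted p = 0.00792), and CASK (0.82, SE 0.161, adjusted p = 0.00708), both higher in females. Without EX HIGH PA replicate 10 ACTA2 was at 1.35 (SE 0.315, adjusted p = 0.0341) and CASK at 0.73 (SE 0.166, adjusted p = 0.0266). Both missed the threshold without cow 72 (adjusted p = 0.0620 each) and without cow 813 (0.407 and 0.327), and CASK with cow as a replicate block (0.61, adjusted p = 0.0808).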

How the data were processed

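The 8 genes and all gene lists were chosen with earlier results of these data known. The authors deposited whole-number counts of total exon, unique exon and intron reads per gene and library, with exon lengths; the submitters' processing notes name build UMD3.1 and DESeq2 1.10.1. Which aligner was run is not given. Libraries were TruSeq stranded mRNA, read as pairs of 50 bases, per the labels' protocols. Total exon counts were fitted with edgeR 4.0.16 (quasi-likelihood F test, TMM, default filter by group), with medium and sex as terms within a tissue, shape added for the shape comparison, and embryo as a block between tissues. Called means a Benjamini-Hochberg adjusted p under 0.05 over all tested genes. Each SE was derived from the fold change and F (the size of the log2 change divided by root F), and intervals are 95%. CPM used the library's exon reads. Exact intervals and the limit of 3 reads for a count of 0 cover counting error only. Named beside the 8 genes were those next in the rule's order, the most correlated named gene, and up to 2 called relatives of lowest p per list. Alternatives were DESeq2 1.42.0, its size factors, no filter, unique reads, left-out libraries and cows, cow as a block, and sample subsets. Lane, mark 2 and leaving out EX HIGH PA replicate 10 were chosen after seeing the data. All 1378 pairs of libraries were compared and 0 were identical. Same-cow EX libraries of different media had a median correlation of deviations of 0.0376 (33 pairs, 14 over 0.1), against 0.0202 for different cows (189 pairs). Fits were also run on counts simulated from the same models, drawn independently and with no term for cow or lane. The simulation thus does not bear on cow or lane effects. R 4.3.3, Python 3.11.15 and matplotlib 3.10.9 were used.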

Additional observations from a re-analysis of the deposited data

Results flagged for a closer look

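In groups of 4 to 10 libraries, 24 sets of CPM values of the 8 genes were examined for a library far from the rest, and 8 had one. The criterion has a nominal rate of about 1 in 20, which was not measured for counts as low as these. Of the 8, 5 lie in EX HIGH PA, among the values that chose the genes, so nothing is read from their number. EX HIGH PA replicate 10, a spherical embryo, was far above the next library for MTMR11 (33.7 against 11.8 CPM), GXYLT2 (23.4 against 8.82) and ACTG2 (21.5 against 2.94). EX HIGH PA replicate 9, also spherical, was far above the rest for MUC1 (88.2 against 19.7 CPM, from 30 reads). EX HIGH PA replicate 4, a tubular embryo, was highest for ST3GAL1 (2.55 against 1.03). EX CONTROL replicate 4, the ovoid female, was highest for MTMR11 (4.08 against 0.960). In discs, ED HIGH PA replicate 5 was highest for ACTG2 (41.98 against 15.5 CPM, from 5 reads in a library of 119116), and ED HIGH PA replicate 2 for GXYLT2 (2.25 against 0.765, from 3 reads).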

How the results depend on the processing

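In extraembryonic HIGH PA against BASAL all 8 genes kept their sign under every alternative that gave a value. Of 25 alternatives, ACTG2 had a value in 17, GXYLT2 in 18 and MTMR11 in 22. This contrast chose the genes and the alternatives share its libraries, so nothing is read from the signs. The number of called genes of all kinds went from 0 to 9 without the filter, and to 2 without the filter and without EX HIGH PA replicate 10. It was 1 without the mark 2 libraries, and 0 to 1 when a cow, a CONTROL library or replicate 10 was left out. In discs the same count went from 0 to 4 without the filter, 2 with DESeq2, and 0 to 97 with a cow or CONTROL library left out (97 without cow 07). Ovoid against tubular EX calls went from 1390 to 0 with cow as a replicate block, 0 with lane as a term and EX HIGH PA replicate 10 left out, 229 without the mark 2 libraries, 1 in BASAL and 0 in HIGH PA embryos alone, and 3 to 4081 with a cow left out (3 without cow 813, 4081 without cow 13). Disc shape calls went from 0 to 17 with DESeq2 and 0 to 4 with a cow left out. Sex calls went from 99 to 164 with the cow block and 17 to 130 with a cow or replicate 10 left out. The cause was not tested. In the contrast that chose the genes, CAMKV was called in 6 alternatives, ACTG2 in 2 and MTMR11 and GXYLT2 in 1 each (adjusted p from 0.0291 to 0.0492), from which nothing is read. In the other comparisons, lost and gained calls of the 8 genes stand beside each result. CAMKV and ACTG2 stayed called lower in EX than in the disc under all 13 alternatives. Depth limits most of the rest: 3 reads are 2.81 CPM in EX HIGH PA replicate 10, above the EX BASAL median of each gene but MTURN and MUC1, and 8.82 CPM in replicate 9, above that of all 8.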
